A study of Homo sapiens with 24 samples.

Results

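The 17 protein-coding genes described here were almost silent in control MDA-MB-436 cells and carried RNA after both treatments of the study. A gene was taken when its mean was under 0.2 CPM (counts per 1e6 counts of the library) in each of 2 control groups of MDA-MB-436 and over 1 CPM in each of 2 treated groups, with collagens and 2 other named genes left out. Of 19693 protein-coding genes among the 60675 identifiers counted, 5217 were under 0.2 CPM in both control groups, 18 also passed both treated thresholds, and 17 remained once names were left out.

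MDA-MB-231 and MDA-MB-436 are established human cell lines from triple-negative breast cancers, and MDM2 is a ubiquitin ligase that marks other proteins for degradation. Each line carried a short hairpin RNA labelled as directed at MDM2, with a non-targeting hairpin as its control, or received the MDM2 PROTAC YX-2-30, with its solvent DMSO as control. A PROTAC binds a target protein and a ubiquitin ligase at once, so that the target is degraded. RNA was sequenced from 3 libraries of each of the 8 groups, and the comparisons ask which transcripts change with loss of MDM2. The labels give no dose, no duration, no hairpin sequence and no word on whether the 3 libraries of a group are separate cultures, so p-values measure only the spread between these libraries.

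A gene that lies silent in one cell type often works in another, and its RNA can appear when signalling or the packing of its chromatin changes. The 17 genes include proteins known from skeletal muscle, nerve, immune cells and surface epithelium. One of them, EGR4, belongs to the immediate early genes, which growth factors and stress switch on within a short time in many cells.

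Library totals ran from 33.4 to 174.7 M counts (M, 1e6), and both extremes were MDA-MB-436 libraries, PROTAC replicate 3 and non-targeting replicate 3. MDM2 RNA averaged 24.99 CPM in the MDA-MB-436 libraries labelled MDM2 shRNA and 23.77 CPM in the non-targeting ones, with no call by edgeR's quasi-likelihood test (adjusted p = 0.78), so these libraries are named by their label throughout. In MDA-MB-231 it averaged 26.9 ± 3.93 CPM with that label and 17.1 ± 5.64 CPM in non-targeting libraries (SD, n = 3 each). With the PROTAC, MDM2 RNA averaged 25.0 CPM in MDA-MB-436, against 34.2 CPM with DMSO, with no call (edgeR adjusted p = 0.0573). In MDA-MB-231 it averaged 22.8 CPM with the PROTAC, against 18.0 CPM with DMSO. Over 15101 genes, Pearson's r of log2(CPM + 0.5) was 0.965 to 0.985 between treated MDA-MB-436 libraries, 0.981 to 0.987 between control libraries and 0.936 to 0.956 between treated and control libraries. PROTAC replicate 3 had the lowest values with other treated libraries, 0.965 to 0.969. The leukocyte markers PTPRC and CD3E, the fibroblast markers DCN, LUM and THY1 and the muscle regulators MYOD1 and MYOG were each under 0.2 CPM in every MDA-MB-436 group. The other 2 fibroblast markers were called in opposite directions in both comparisons by edgeR. PDGFRB was higher, at 3.30 and 3.14 CPM in the MDM2 shRNA and PROTAC groups, against 0.716 and 0.988 CPM in the non-targeting and DMSO groups. FAP was lower, at 4.51 and 4.94 CPM in the MDM2 shRNA and PROTAC groups, against 8.48 and 9.78 CPM in the non-targeting and DMSO groups. Their part in the results was not tested.

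The sequence just before and after the start of a gene is where its transcription is set up, so promoter windows of 5 of the genes are shown, from RefSeq on GRCh38.p14, each 5′ to 3′ on the strand of its gene. Each holds 250 bases before the annotated start and 50 after it. They are the 3 genes called in MDA-MB-231, the muscle myosin gene MYH2, which was at 0 in most controls, and EGR4. The capitals mark a TATA box (TATAAA) or a GC box (GGGCGG, printed as CCGCCC where it lies on the other strand). RCSD1 lies at chr1:167629982-167630281 on the plus strand, CLIC5 at chr6:46080299-46080598 on the minus strand, ARHGAP40 at chr20:38601559-38601858 on the plus strand, MYH2 at chr17:10549609-10549908 on the minus strand and EGR4 at chr2:73293499-73293798 on the minus strand. Of the 3 annotated windows of CLIC5, the one that spans the gene's start in GENCODE 29 is shown.
RCSD1: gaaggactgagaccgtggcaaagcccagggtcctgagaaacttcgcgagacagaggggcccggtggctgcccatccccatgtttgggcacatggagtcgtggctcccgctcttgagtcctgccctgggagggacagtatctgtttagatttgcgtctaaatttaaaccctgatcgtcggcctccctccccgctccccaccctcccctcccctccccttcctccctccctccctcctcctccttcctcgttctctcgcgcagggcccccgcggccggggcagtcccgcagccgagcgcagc
CLIC5: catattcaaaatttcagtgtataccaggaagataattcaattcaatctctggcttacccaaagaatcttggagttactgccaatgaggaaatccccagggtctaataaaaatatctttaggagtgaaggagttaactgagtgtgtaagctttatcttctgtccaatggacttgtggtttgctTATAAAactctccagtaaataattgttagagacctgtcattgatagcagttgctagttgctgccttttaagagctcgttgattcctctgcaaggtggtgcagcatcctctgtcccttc
ARHGAP40: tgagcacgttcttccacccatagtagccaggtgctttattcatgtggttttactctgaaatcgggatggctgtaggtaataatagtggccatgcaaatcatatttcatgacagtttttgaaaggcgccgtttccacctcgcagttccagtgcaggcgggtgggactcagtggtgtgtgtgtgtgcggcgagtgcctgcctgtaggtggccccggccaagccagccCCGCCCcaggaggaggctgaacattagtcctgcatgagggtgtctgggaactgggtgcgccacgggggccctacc
MYH2: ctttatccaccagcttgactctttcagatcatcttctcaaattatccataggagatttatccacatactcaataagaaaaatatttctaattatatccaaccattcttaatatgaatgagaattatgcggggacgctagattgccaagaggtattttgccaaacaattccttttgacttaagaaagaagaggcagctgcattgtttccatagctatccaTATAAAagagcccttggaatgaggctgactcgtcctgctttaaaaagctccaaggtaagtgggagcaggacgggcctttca
EGR4: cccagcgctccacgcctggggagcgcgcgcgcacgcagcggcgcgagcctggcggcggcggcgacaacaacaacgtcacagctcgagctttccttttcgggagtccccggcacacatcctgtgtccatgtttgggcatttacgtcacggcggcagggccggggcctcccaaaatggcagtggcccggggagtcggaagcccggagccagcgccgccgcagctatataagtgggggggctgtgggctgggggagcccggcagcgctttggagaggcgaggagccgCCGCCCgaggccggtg

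Promoter windows were found for 14 of the 17 genes, 18 windows in all, and not for AC139530.2, AC010422.6 and KCNB2. The ratio of observed to expected CpG, which is low in promoters outside CpG islands, had a median of 0.437 in these 18 windows and 0.737 in 22199 windows of protein-coding genes. It was under 0.6 in 10 of the 18 windows (55.6%), against 37.8% of all windows. The windows fell on both sides, from 0.0848 in the CLIC5 window printed above to 1.07 in one window of SLC8A3, which had 0.324 in its other window. EGR4 (0.933) and INSM2 (0.876) lay among the CpG-rich ones, and PLA2G4D (0.208), CAMK1G (0.270), ENPP6 (0.277) and MYH2 (0.352) among the CpG-poor ones. Windows of near-silent genes alone were not compared, here or for the motifs below, and some genes gave more than 1 window.

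**Figure D1:**
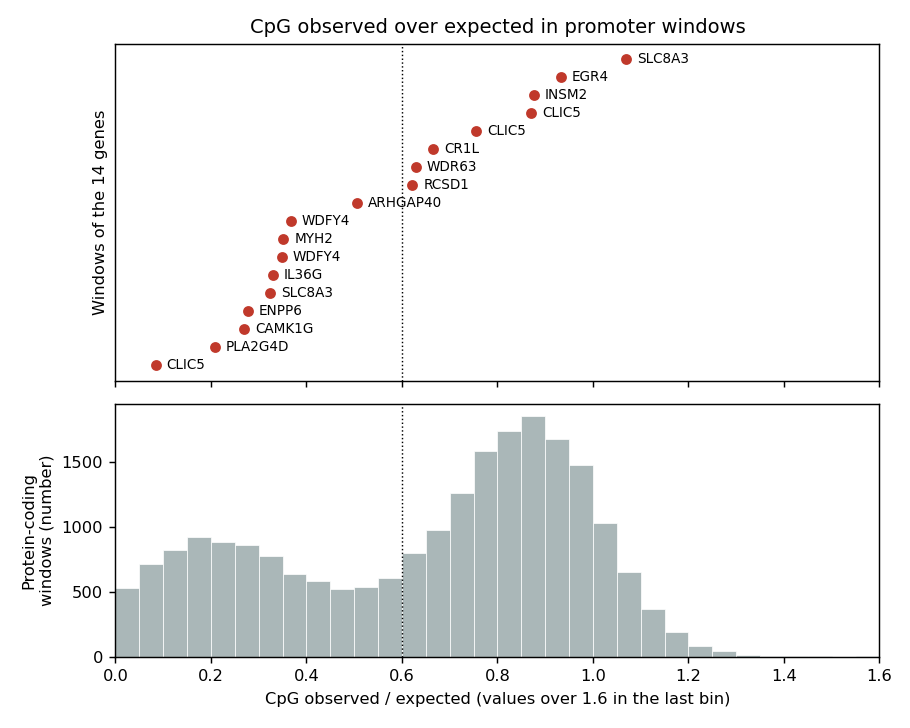
Ratio of observed to expected CpG in the 18 promoter windows of 14 genes (upper panel, 1 point per window, named by gene) above the number of protein-coding windows in each bin of that ratio (lower panel). The dotted line stands at 0.6, with 10 of the 18 windows to its left, against 37.8% of all windows.

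Both strands of each window were searched for 7 short motifs, and shares are of 18 windows of these genes and of all 22199. The TATA box (TATAAA) was in 4 windows, those of CLIC5, INSM2, MYH2 and PLA2G4D (22.2%, against 9.47% of all). The GC box (GGGCGG) was in 6 windows (33.3%, against 56.3%), among them EGR4 and ARHGAP40. The AP-1 site (TGANTCA) was in 2 windows, of ENPP6 and WDFY4 (11.1%, against 6.15%). The cyclic AMP response element (TGACGTCA) was in the window of WDR63 alone (5.56%, against 2.26%). No window held the E-box CACGTG (8.34% of all), the CArG box (1.25% of all) or the half-site consensus of p53 (6.21% of all), which says only that these letters are not in these windows. A CArG box can hold a TATA box, and no other motif searched can hold another. With 18 windows, 1 window more or less moves a share by 5.56 points.

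In MDA-MB-436, the treated values of the 17 genes were low, with a median of the treated means at 2.3 CPM. The means ranged from 1.1 CPM (WDR63) to 5.64 CPM (AC139530.2). Of all protein-coding genes, 61.9% had a higher treated mean than that median. Of 102 treated values, 5 were 0, all of them in AC139530.2 and AC010422.6. Since these values chose the genes, they are given as a description with no test. In the control libraries 44 of 102 values were 0, the median was 4.5 counts in a library, and the highest was 0.374 CPM (CAMK1G in non-targeting replicate 2). In 15 genes, the lowest of 6 treated libraries was above the highest of 6 control libraries, and the same 15 had counts in every treated library. Their 2 groups did not overlap in either comparison, as was so, in the higher direction, for 36.4% of all genes with the hairpin label and 28.6% with the PROTAC. Bulk RNA cannot tell apart a few cells that carry much of a transcript from many cells that carry little.

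**Figure D2:**
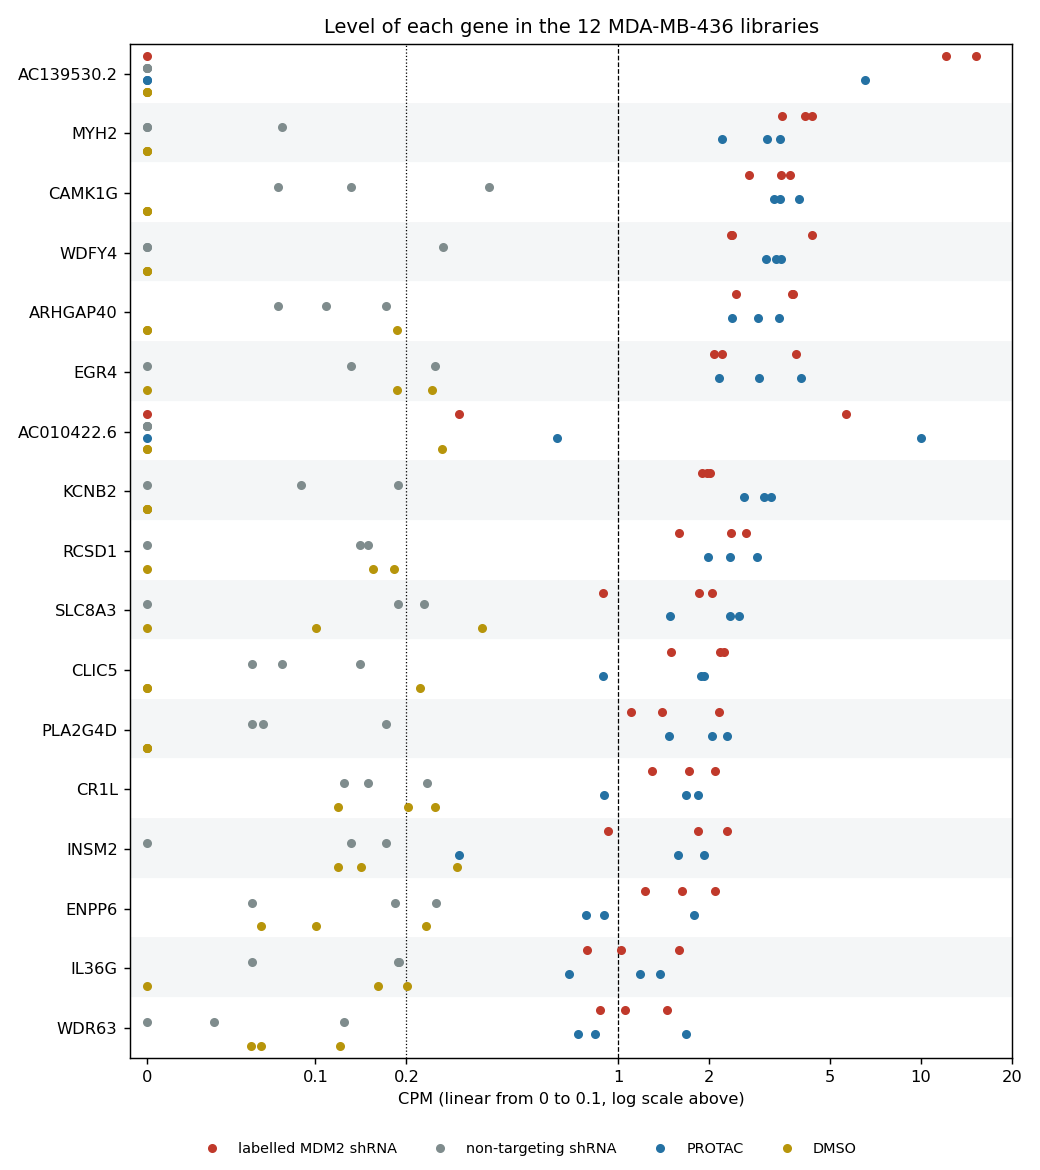
Level of each of the 17 genes (rows, ordered by mean treated level) in the 12 MDA-MB-436 libraries, in CPM, linear to 0.1 and on a log scale above; each point is 1 library, with the 4 groups offset within a row and lines at 0.2 and 1 CPM. In 15 rows every treated point lies right of every control point, while AC139530.2 and AC010422.6 have treated points at 0.

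Among these 15 genes, the treated mean over the mean of the non-targeting libraries had a median of 20.5 and ran from 7.74 (IL36G) to 150 (MYH2). With the PROTAC the median was 21.2 for the genes and bounds together, and the values ran from 6.85 (INSM2) to 46.6 (ARHGAP40) where DMSO libraries had counts. In 5 genes, all 3 DMSO libraries were at 0, and the ratios are bounds set by 3 counts over the DMSO group (0.0173 CPM), a floor that covers counting error only. The mean PROTAC level was 0.7 to 1.5 times the mean level with the MDM2 shRNA label in all 15, with ENPP6 lowest and KCNB2 highest.

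Genes of muscle and of the cytoskeleton and its regulators came first. MYH2 encodes the myosin heavy chain of a fast type of skeletal muscle fibre. It measured 4.15, 4.36 and 3.48 CPM with the MDM2 shRNA label, against 0, 0 and 0.0801 CPM with the non-targeting hairpin. The PROTAC libraries held 2.21, 3.44 and 3.11 CPM, against 0 in all 3 DMSO libraries, at least 168-fold higher. The muscle markers MYOD1, MYOG and DES summed to 0 to 0.328 and 0.0859 to 0.12 CPM in the MDM2 shRNA and PROTAC groups, against 0.125 to 0.312 and 0.101 to 0.339 CPM in the non-targeting and DMSO groups. Those muscle markers were under 0.4 CPM in sum in each library. RCSD1, also known as CapZIP, binds the actin capping protein CapZ and is a substrate of stress kinases. It measured 2.36, 2.65 and 1.59 CPM with the MDM2 shRNA label, against 0.140, 0 and 0.149 CPM with the non-targeting hairpin. The PROTAC libraries held 1.99, 2.34 and 2.87 CPM, against 0.181, 0 and 0.155 CPM in DMSO libraries, so no treated library came near a control one. ARHGAP40 carries a GTPase-activating domain, by which small GTPases are switched off. Its levels were 3.77, 2.46 and 3.77 CPM with the MDM2 shRNA label, against 0.0779, 0.171 and 0.109 CPM with the non-targeting hairpin. The PROTAC libraries held 2.38, 3.41 and 2.9 CPM of it, against 0, 0.186 and 0 CPM in DMSO libraries, of which 2 were at 0.

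A channel of nerve, an exchanger and a CLIC protein belonged to the ion channels and membrane transporters. KCNB2 is a voltage-gated potassium channel of nerve cells. Its level was 1.97, 1.89 and 2.01 CPM with the MDM2 shRNA label, against 0, 0.187 and 0.0916 CPM with the non-targeting hairpin. It measured 3.19, 3.02 and 2.6 CPM with the PROTAC, against 0 in all 3 DMSO libraries, at least 170-fold higher. Among the 15 genes with counts in every treated library, KCNB2 had the highest PROTAC level relative to its hairpin level, 1.5 times. SLC8A3 exchanges sodium for calcium across the plasma membrane of muscle and nerve. It measured 2.05, 0.893 and 1.85 CPM with the MDM2 shRNA label, against 0, 0.187 and 0.229 CPM with the non-targeting hairpin. Under the PROTAC, SLC8A3 measured 1.49, 2.34 and 2.51 CPM, against 0.101, 0 and 0.356 CPM with DMSO, and its DMSO replicate 3 was among the highest control values of the set. CLIC5 belongs to the chloride intracellular channel family and is found with actin in the hair cells of the ear and in kidney podocytes. Its level was 2.24, 1.5 and 2.17 CPM with the MDM2 shRNA label, against 0.140, 0.0623 and 0.0801 CPM with the non-targeting hairpin. It was 0.892, 1.87 and 1.92 CPM with the PROTAC, against 0.222, 0 and 0 CPM with DMSO, and PROTAC replicate 1 was its lowest treated library.

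Signalling enzymes and regulators followed. CAMK1G is a protein kinase driven by calcium and calmodulin. It measured 3.44, 3.69 and 2.71 CPM with the MDM2 shRNA label, against 0.0779, 0.374 and 0.132 CPM with the non-targeting hairpin. With the PROTAC it was at 3.96, 3.27 and 3.41 CPM, against 0 in all 3 DMSO libraries, at least 205-fold higher. Its non-targeting level, a mean of 0.195 CPM, lay just inside the threshold. PLA2G4D is a cytosolic phospholipase found in skin, and its levels were 1.1, 1.4 and 2.15 CPM with the MDM2 shRNA label, against 0.0624, 0.171 and 0.0687 CPM with the non-targeting hairpin. The PROTAC libraries held 1.47, 2.29 and 2.04 CPM, against 0 in all 3 DMSO libraries, at least 112-fold higher. ENPP6 is a phosphodiesterase that releases choline phosphate and is known from oligodendrocytes. It measured 2.09, 1.23 and 1.62 CPM with the MDM2 shRNA label, against 0.249, 0.0623 and 0.183 CPM with the non-targeting hairpin. In PROTAC libraries it measured 0.783, 1.78 and 0.898 CPM, against 0.101, 0.0678 and 0.232 CPM in DMSO libraries, and 2 of the 3 PROTAC values lay under 1 CPM.

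The transcription factors EGR4 and INSM2 both carry zinc fingers. EGR4 measured 3.86, 2.07 and 2.2 CPM with the MDM2 shRNA label, against 0, 0.249 and 0.132 CPM with the non-targeting hairpin. It was at 4.01, 2.93 and 2.15 CPM with the PROTAC, against 0.242, 0.186 and 0 CPM with DMSO. Fold values of EGR4 were near each other, 21.3 with the hairpin label and 21.2 with the PROTAC. INSM2 is a zinc-finger factor of neuroendocrine cells. Its levels were 1.84, 0.926 and 2.29 CPM with the MDM2 shRNA label, against 0, 0.171 and 0.132 CPM with the non-targeting hairpin. They were 1.58, 1.92 and 0.299 CPM with the PROTAC, against 0.141, 0.119 and 0.294 CPM with DMSO. PROTAC replicate 3 of INSM2, the library with the fewest counts, lay only just above the highest DMSO library. The neural markers SYP, SNAP25, TUBB3, ELAVL4 and STMN2 summed to 46.8 to 148 and 39.9 to 112 CPM in the MDM2 shRNA and PROTAC groups, against 53.4 to 60.1 and 52.9 to 62.1 CPM in the non-targeting and DMSO groups. TUBB3, which was not called in either comparison, had the widest range of the 5. It ran from 26.15 to 128.7 and 16.82 to 94.12 CPM in the MDM2 shRNA and PROTAC groups. One of the 5, SYP, was called higher in both comparisons and none was called lower. SYP averaged 12.78 and 10.65 CPM in the MDM2 shRNA and PROTAC groups, against 4.74 and 3.46 CPM in the non-targeting and DMSO groups. The part of such a change in the neural members of the set was not tested.

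Immune and epithelial genes made up most of the rest. WDFY4 is needed by dendritic cells to present antigen from taken-up cells. It measured 4.38, 2.38 and 2.36 CPM with the MDM2 shRNA label, against 0.265, 0 and 0 CPM with the non-targeting hairpin. Under the PROTAC, WDFY4 measured 3.08, 3.44 and 3.32 CPM, against 0 in all 3 DMSO libraries, at least 190-fold higher. The leukocyte markers PTPRC, CD3E, CD14 and LCP1 summed to 10.2 to 12.2 and 10.9 to 11.7 CPM in the MDM2 shRNA and PROTAC groups, against 7.89 to 14.9 and 10.7 to 13.1 CPM in the non-targeting and DMSO groups. Of the 4, LCP1 was called higher and CD14 lower in both comparisons, and the other 2 were under 0.2 CPM in each group. CR1L resembles complement receptors, and its levels were 1.72, 1.3 and 2.1 CPM with the MDM2 shRNA label, against 0.125, 0.234 and 0.149 CPM with the non-targeting hairpin. They were 1.68, 1.83 and 0.898 CPM with the PROTAC, against 0.202, 0.119 and 0.248 CPM with DMSO, where each control library held some counts. IL36G is a cytokine that epithelia release in inflammation. It measured 1.02, 1.58 and 0.786 CPM with the MDM2 shRNA label, against 0.187, 0.0623 and 0.189 CPM with the non-targeting hairpin. Levels of IL36G with the PROTAC were 1.38, 1.18 and 0.688 CPM, against 0.161, 0 and 0.201 CPM with DMSO, and in each treated group 1 library was under 1 CPM. WDR63, named DNAI3 in RefSeq, is a chain of the dynein motor in cilia. Its levels were 1.05, 1.45 and 0.874 CPM with the MDM2 shRNA label, against 0, 0.125 and 0.0401 CPM with the non-targeting hairpin. They were 0.736, 0.842 and 1.68 CPM with the PROTAC, against 0.121, 0.0678 and 0.0619 CPM with DMSO, and WDR63 had the lowest treated mean of the set.

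AC139530.2 and AC010422.6 differed from the other 15 genes in that their treated libraries differed widely. AC139530.2 measured 12.1, 0 and 15.2 CPM with the MDM2 shRNA label, against 0 in all 3 non-targeting libraries. With the PROTAC it measured 0, 0 and 6.55 CPM, against 0 in all 3 DMSO libraries, so that 3 of 6 treated libraries were at 0. AC010422.6 measured 0, 5.66 and 0.297 CPM with the MDM2 shRNA label, against 0 in all 3 non-targeting libraries. The PROTAC libraries held 9.97, 0.627 and 0 CPM, against 0.262, 0 and 0 CPM with DMSO, so that 1 library carried the mean of each treated group. On the same strand, AC139530.2 shares exons with SLC25A10 and MRPL12, and AC010422.6 with ZNF490 and ZNF564, and how the authors' counting split reads between them is not given, so both genes' values are uncertain. SLC25A10 averaged 26.02 and 29.01 CPM in the MDM2 shRNA and PROTAC groups, against 20.67 and 18.86 CPM in the non-targeting and DMSO groups. MRPL12 averaged 87.76 and 90.66 CPM in the MDM2 shRNA and PROTAC groups, against 111.2 and 89.81 CPM in the non-targeting and DMSO groups. ZNF490 averaged 1.69 and 2.65 CPM in the MDM2 shRNA and PROTAC groups, against 1.996 and 2.696 CPM in the non-targeting and DMSO groups. ZNF564 averaged 4.01 and 5.08 CPM in the MDM2 shRNA and PROTAC groups, against 5.31 and 5.01 CPM in the non-targeting and DMSO groups. These partners were thus expressed in treated and control groups. SLC25A10 was called higher with the PROTAC (edgeR adjusted p = 0.00184) and not called with the MDM2 shRNA label, and MRPL12, ZNF490 and ZNF564 were not called in either comparison. CR1L shares an exon on its strand with CD46P1, which averaged at most 0.0219 CPM in a MDA-MB-436 group. MYH2, WDFY4, RCSD1 and CR1L have partners on the opposite strand, and without a stated strand setting their reads could not be told apart. The partners of MYH2, WDFY4 and RCSD1 averaged at most 0, 0.0229 and 0.0157 CPM in a MDA-MB-436 group, and the level of the partner of CR1L, AL137789.2, was not analysed here. In all, 6 of the 17 genes had such an overlap, against 44.0% of protein-coding genes.

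Per kilobase of exon, the order of treated levels changed. AC139530.2 was at 2.94 CPM per kb, followed by CAMK1G at 1.28, EGR4 at 1.21 and ARHGAP40 at 0.975 CPM per kb. IL36G, with the second lowest treated CPM, came next at 0.801 CPM per kb, as its exons cover 1.38 kb. CLIC5 was lowest at 0.188 CPM per kb over 9.39 kb of exons.

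The set depends on where the thresholds stand. Just inside, CR1L averaged 0.189 CPM in DMSO libraries and IL36G and WDR63 averaged 1.08 CPM each in PROTAC libraries. Just outside were LMOD1 with 0.204 CPM in non-targeting libraries, DISP3 with 0.221 CPM in DMSO libraries, SCG3 with 0.971 CPM in libraries labelled MDM2 shRNA and LPA with 0.955 CPM in PROTAC libraries. The hairpin thresholds alone took 42 protein-coding genes and the PROTAC thresholds alone took 65, and the 18 in both made up 42.9% of the hairpin list and 27.7% of the PROTAC list. The 2 comparisons have separate control groups. Turned round, with genes near-silent in treated libraries and over 1 CPM in controls, the rule took 6 genes for the hairpin, 4 for the PROTAC and 0 for both. Over genes of any type it took 32, of which 18 were protein-coding, 7 lincRNAs, 5 unprocessed pseudogenes and 2 antisense RNAs. Of the 5217 near-silent genes, 0.35% met the thresholds.

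Making the list again without 1 library keeps that library's values out of the choice. The other libraries of its group still took part, and whether they are separate cultures is not given. The counts below thus describe how alike libraries of a group are, and are no independent support for the set. When the list was made again without 1 MDA-MB-436 library, 15 to 24 genes were taken, and 7 of the 17 genes were in all 12 of those lists: MYH2, WDFY4, ARHGAP40, KCNB2, RCSD1, CLIC5 and PLA2G4D. In the treated library left out, 16 of 18 genes were over 1 CPM at best (replicate 1 with the MDM2 shRNA label) and 10 of 22 at worst (PROTAC replicate 3). The share of the 5217 near-silent genes over 1 CPM in these libraries was 0.59 to 1%. In the control library left out, between 13 of 24 genes (non-targeting replicate 2) and 14 of 16 genes (DMSO replicate 2) were under 0.2 CPM. The highest of those 16 genes, which is not one of the 17, reached 79.0 CPM in DMSO replicate 2. For the control libraries left out, the share of all near-silent genes under 0.2 CPM was not taken. The 5 genes MYH2, ARHGAP40, KCNB2, RCSD1 and PLA2G4D met the thresholds in each of the 12 libraries taken singly. AC139530.2 left the list without PROTAC replicate 3, and AC010422.6 left it without replicate 2 of the MDM2 shRNA label or without PROTAC replicate 1.

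By classes built from gene symbols, 3 of the 17 genes were ion channels or transporters (17.6%, against 3.99% of protein-coding genes). The share of each class among near-silent genes alone was not taken. IL36G was the one gene among secreted signals and proteases, MYH2 among cytoskeletal genes and PLA2G4D among metabolic enzymes. The other 11 (64.7%, against 76.7%) fell in no class, and none fell among germ-line genes, receptors coupled to G proteins, homeobox genes, zinc-finger genes, immune surface and antigen genes or the adhesion and matrix class. The symbol patterns put neither EGR4 nor INSM2 among zinc-finger genes. They also left CR1L, WDFY4, RCSD1, WDR63, CAMK1G and ENPP6 in no class. The class counts thus follow gene symbols and not what the proteins do.

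The 17 genes were spread over 11 chromosomes, with 4 on chromosome 1 (23.5%, against 10.2% of protein-coding genes) and at most 2 on any other. No pair lay within 1 Mb, and the nearest starts, of CAMK1G and CR1L, were 1.94 Mb apart. The genes spanned 2.78 kb (EGR4) to 401 kb (KCNB2) with a median of 55.3 kb, against 27.2 kb over protein-coding genes, and 6 spanned over 100 kb, as 18.0% of protein-coding genes did.

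The nearest protein-coding neighbour on either side of each gene was followed in the same MDA-MB-436 fit, where these neighbours were not chosen by their values. Of 34 neighbours, 27 passed the filter on low counts. With the MDM2 shRNA label 4 were called higher, 8 lower and 15 not called, beside 16% of all genes higher and 14.4% lower. The PROTAC gave 3 higher, 8 lower and 16 not called, beside 17.3% higher and 15.1% lower. The neighbours' median log2 change was -0.12 with the hairpin label and -0.09 with the PROTAC, and over all genes tested it was 0.04 in each.

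LAMB3, a chain of an epithelial basement membrane laminin, had the largest log2 change of the tested neighbours in both comparisons. Its end lies 0.932 kb from that of CAMK1G, and the 2 genes run towards each other from opposite strands. It averaged 149.2 ± 7.32 CPM with the MDM2 shRNA label, against 18.38 ± 1.84 CPM with the non-targeting hairpin (SD, n = 3 each; log2 change 2.84 ± 0.16, edgeR adjusted p = 3.7e-07). LAMB3 averaged 141.1 ± 30.0 CPM with the PROTAC, against 18.12 ± 2.60 CPM with DMSO (log2 change 2.80 ± 0.16; adjusted p = 4.0e-07, edgeR). In MDA-MB-231, LAMB3 averaged 827.1 CPM with the MDM2 shRNA label and 795.2 CPM with the non-targeting hairpin. CAMK1G was at or under 0.4 CPM in each library of that line. Whether reads from beyond the end of LAMB3 entered the count of CAMK1G was not tested in either line.

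The other called neighbours had smaller log2 changes. HGS, 0.233 kb from AC139530.2 and on its strand, was called higher in both comparisons. Its log2 change was 0.40 ± 0.09 with the hairpin label and 0.47 ± 0.09 with the PROTAC (edgeR adjusted p = 0.0047 and 0.00161). SMOC1, beside SLC8A3, was called higher in both comparisons (log2 change 1.19 ± 0.30 with the hairpin label and 1.09 ± 0.31 with the PROTAC; edgeR adjusted p = 0.0113 and 0.0175). CD46, which protects cells from complement and lies 13.6 kb past CR1L, was called lower (log2 change -0.69 ± 0.11 and -0.97 ± 0.11; edgeR adjusted p = 0.000571 and 4.8e-05). MCOLN2, 2.03 kb from WDR63, was also called lower (log2 change -0.95 ± 0.20 and -0.81 ± 0.20; edgeR adjusted p = 0.00329 and 0.00806). MYH1, the myosin gene 2.6 kb from MYH2, averaged at most 0.0336 CPM in a MDA-MB-436 group and was not tested.

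**Figure D3:**
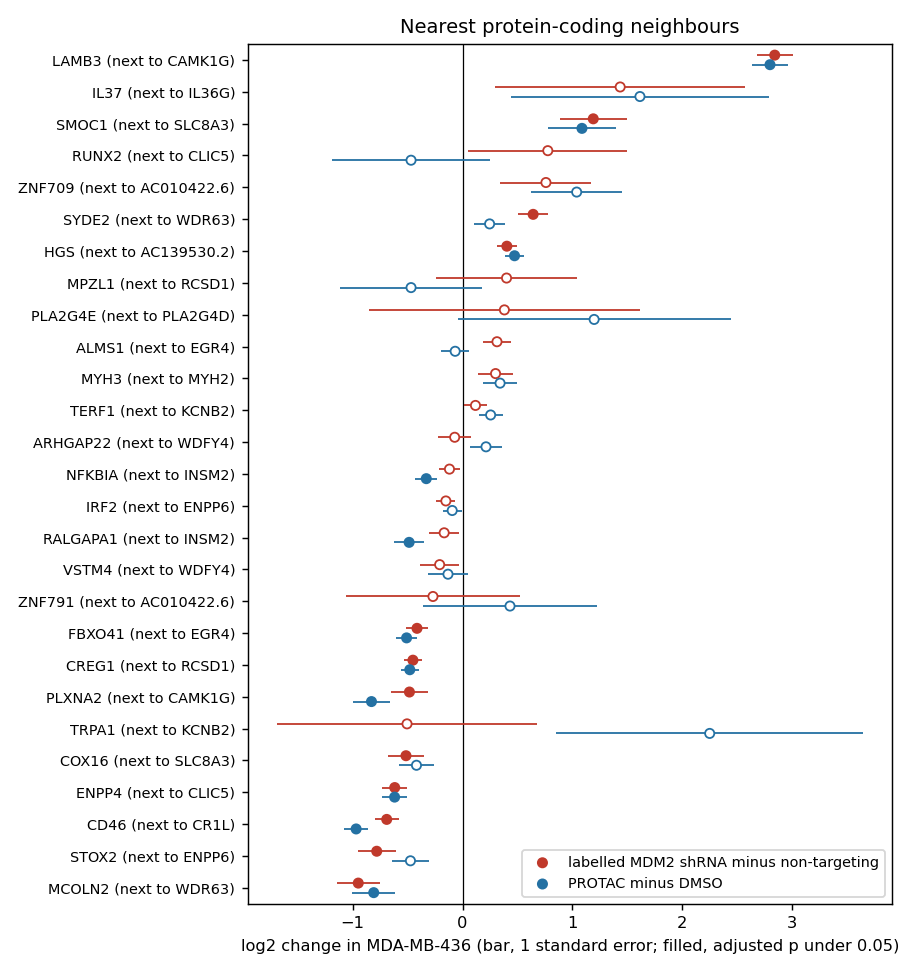
Log2 change in MDA-MB-436 of the 27 tested nearest neighbours of the 17 genes (rows), with the MDM2 shRNA label against the non-targeting hairpin and with the PROTAC against DMSO; bars are 1 standard error and filled points have an edgeR adjusted p under 0.05. LAMB3, beside CAMK1G, stands at 2.84 and 2.80, while 8 neighbours in each comparison were called lower.

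Relatives of the genes within their families, 50 in all, were listed after the 17 genes were known. Of 34 that passed the filter, 6 were called higher (17.6%, against 16% of all genes tested) and 8 lower with the MDM2 shRNA label. With the PROTAC, 9 were called higher (26.5%, against 17.3% of all genes tested) and 8 lower. All 3 relatives of EGR4 were called higher in both comparisons. EGR1, expressed already in controls, averaged 93.88 CPM with the MDM2 shRNA label, against 7.18 CPM with the non-targeting hairpin, and 99.75 CPM with the PROTAC, against 7.87 CPM with DMSO (log2 change 3.53 ± 0.10 and 3.50 ± 0.10; edgeR adjusted p = 4.2e-09 and 4.5e-09). EGR2 had log2 changes of 3.52 ± 0.37 and 2.78 ± 0.36, and EGR3 of 2.05 ± 0.36 and 2.24 ± 0.37 (edgeR adjusted p at most 0.00121). PLA2G4C, a relative of PLA2G4D, was also called higher, at 29.84 and 28.16 CPM in the MDM2 shRNA and PROTAC groups, against 4.46 and 4.03 CPM in the non-targeting and DMSO groups. CD55, a relative of CR1L that restrains complement, had log2 changes of 0.94 ± 0.07 and 0.84 ± 0.07, and WDR78, a relative of WDR63, of 1.22 ± 0.19 and 1.53 ± 0.19 (edgeR adjusted p at most 0.000482). CLIC2, DNAI1 and PNCK, relatives of CLIC5, WDR63 and CAMK1G, were called higher with the PROTAC (log2 change 1.04 ± 0.27, 2.63 ± 0.82 and 0.59 ± 0.17) and not called with the MDM2 shRNA label, and the difference between the comparisons was not tested. The myosin genes MYH1, MYH4, MYH6, MYH7, MYH8 and MYH13 averaged under 0.1 CPM in each group, and MYH3 was not called. SLC8A1, ARHGAP18, CAMK1 and WDFY3 were called lower in both. Among the relatives of IL36G, IL1B was called lower in both comparisons (log2 change -0.54 ± 0.05 and -0.44 ± 0.05), and IL36A, IL36B and IL36RN were not called or not tested.

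In MDA-MB-231, whose libraries took no part in choosing the genes, most of the 17 stayed silent. In all, 10 were under 0.2 CPM in all 4 groups, as were 84.6% of the 5217 genes near-silent in MDA-MB-436 controls and 28.5% of all protein-coding genes. MYH2, WDFY4, KCNB2, SLC8A3 and CR1L, 5 of the 10, had 0 counts in all 12 libraries, which allows up to 0.00366 CPM over these libraries. ENPP6 and IL36G had counts in 1 PROTAC library each, at 0.0736 and 0.0705 CPM, and PLA2G4D in 2 control libraries. INSM2 and WDR63 were at most 0.168 and 0.229 CPM in a library.

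RCSD1, ARHGAP40, CLIC5 and AC010422.6, 4 of the 17 (23.5%), averaged over 1 CPM in both MDA-MB-231 control groups, AC010422.6 through 1 library in each. The share was 61.8% of all protein-coding genes and 4.79% of the genes near-silent in MDA-MB-436 controls. Over the 6 control libraries, RCSD1 averaged 24.6 CPM, ARHGAP40 10.3 CPM and CLIC5 2.24 CPM. The treated MDA-MB-436 level was 0.0936 times that control level for RCSD1, 0.302 times for ARHGAP40 and 0.786 times for CLIC5. So the level gained in MDA-MB-436 stayed under the resting level of the other line for these 3 genes. It was 19.9 to 94.4 times that level for CAMK1G, EGR4, INSM2, PLA2G4D and WDR63. Those resting levels were only 0.0185 CPM (PLA2G4D) to 0.115 CPM (CAMK1G), so these ratios rest on few counts and are rough.

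**Figure D4:**
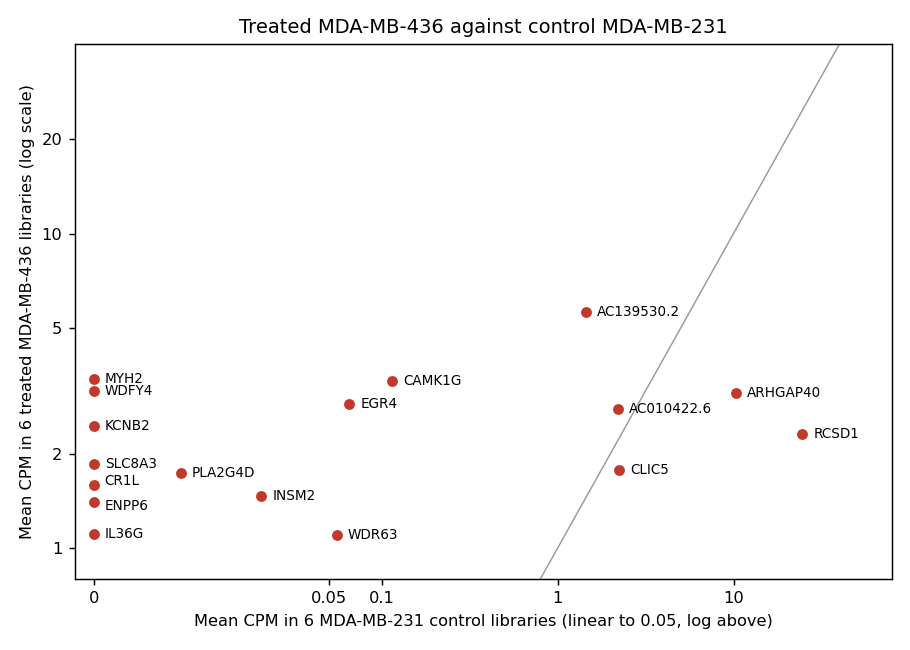
Mean CPM of each of the 17 genes in the 6 treated MDA-MB-436 libraries (vertical, log scale) against the 6 control MDA-MB-231 libraries (horizontal, linear to 0.05 and log above), with the line of equal levels. RCSD1, ARHGAP40 and CLIC5 lie right of the line, and 7 genes lie at 0 on the horizontal axis.

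Of the 17 genes, 7 passed the filter on low counts in MDA-MB-231 and were tested by edgeR's quasi-likelihood test with Benjamini-Hochberg adjustment over all 20675 genes. The same 3, CLIC5, ARHGAP40 and RCSD1, were called in each comparison, where 22.7% of all genes were called with the MDM2 shRNA label and 22.6% with the PROTAC. CLIC5 rose to 5.97, 5.2 and 5.33 CPM with the MDM2 shRNA label, against 2.37, 2.69 and 2.11 CPM with the non-targeting hairpin. The fold was 2.15 (95% interval 1.74 to 2.66; log2 change 1.10 ± 0.14, edgeR adjusted p = 0.000193). It rose to 4.67, 5.38 and 6.29 CPM with the PROTAC, against 2.08, 2.15 and 2.08 CPM with DMSO. There the fold was 2.45 (95% interval 1.97 to 3.03; log2 change 1.29 ± 0.14, edgeR adjusted p = 6.8e-05), and treated and control libraries of CLIC5 did not overlap, as was so, in the higher direction, for 27.6% of genes with the hairpin label and 25.6% with the PROTAC.

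ARHGAP40 rose to 15.2, 16.5 and 15.6 CPM with the MDM2 shRNA label, against 9.77, 9.86 and 11.3 CPM with the non-targeting hairpin. The fold was 1.43 (95% interval 1.23 to 1.65; log2 change 0.51 ± 0.10, edgeR adjusted p = 0.00277). It rose to 16.6, 14.1 and 13.4 CPM with the PROTAC, against 10.5, 10.3 and 10.3 CPM with DMSO. That fold was 1.34 (95% interval 1.16 to 1.55; log2 change 0.42 ± 0.10, edgeR adjusted p = 0.0082), and again every treated library lay above every control library.

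RCSD1 fell in MDA-MB-231, to 11.1, 9.0 and 13.9 CPM with the MDM2 shRNA label, against 20.4, 28.4 and 27.0 CPM with the non-targeting hairpin. The fold was 0.418 (95% interval 0.315 to 0.556; log2 change -1.26 ± 0.19, edgeR adjusted p = 0.000598). It fell to 13.1, 12.8 and 10.9 CPM with the PROTAC, against 23.1, 28.7 and 19.7 CPM with DMSO. That fold was 0.487 (95% interval 0.367 to 0.647; log2 change -1.04 ± 0.19, edgeR adjusted p = 0.00202). Each treated library of RCSD1 lay below each of its control libraries, as was so for 13.5% of genes with the hairpin label and 14.9% with the PROTAC. RCSD1 thus sat higher in treated libraries of MDA-MB-436 and lower in those of MDA-MB-231, and treated libraries of the 2 lines ended at 1.59 to 2.87 and 9.0 to 13.9 CPM. The opposite-strand partner of RCSD1 averaged 0.216 to 0.278 CPM in MDA-MB-231 groups.

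**Figure D5:**
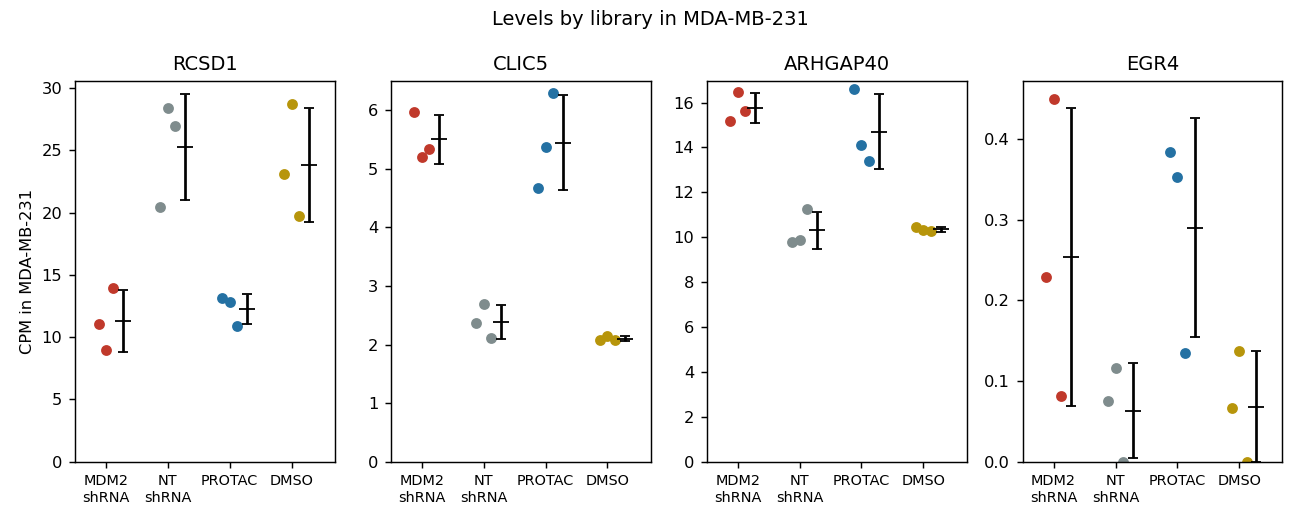
CPM of RCSD1, CLIC5, ARHGAP40 and EGR4 in the 12 MDA-MB-231 libraries (points, 3 per group) with mean ± SD (bars), in libraries labelled MDM2 shRNA, non-targeting shRNA (NT), PROTAC and DMSO. Treated and control points are apart in RCSD1, CLIC5 and ARHGAP40 and overlap in EGR4, which stayed under 0.45 CPM.

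The 4 other tested genes were not called. EGR4 measured 0.229, 0.449 and 0.0817 CPM with the MDM2 shRNA label, against 0.0748, 0.116 and 0 CPM with the non-targeting hairpin (fold 3.6, 95% interval 0.615 to 21.0, edgeR adjusted p = 0.307). With the PROTAC it measured 0.383, 0.353 and 0.134 CPM, against 0.0661, 0.137 and 0 CPM with DMSO (fold 4.11, 95% interval 0.688 to 24.6, edgeR adjusted p = 0.259). Both intervals for EGR4 run from below 1 to over 20. CAMK1G measured 0, 0 and 0.131 CPM with the MDM2 shRNA label, against 0.243, 0 and 0.398 CPM with the non-targeting hairpin (edgeR adjusted p = 0.349). It was at 0.118, 0.0882 and 0.185 CPM with the PROTAC, against 0, 0.0515 and 0 CPM with DMSO (edgeR adjusted p = 0.293), and its log2 changes had opposite signs, -2.34 ± 1.58 and 2.89 ± 1.77. AC139530.2 was uneven here too, at 0, 7.82 and 10.1 CPM with the MDM2 shRNA label, against 0 in all 3 non-targeting libraries (edgeR adjusted p = 0.125). It was at 0 in all 3 PROTAC libraries, against 0, 0 and 8.79 CPM in DMSO libraries (edgeR adjusted p = 0.172). AC010422.6 ranged from 0 to 0.857 CPM in the 6 treated libraries and from 0 to 8.57 CPM in the 6 control libraries (edgeR adjusted p = 0.379 with the hairpin label and 0.618 with the PROTAC).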

How the data were processed

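RNA was sequenced in 24 libraries, 3 in each of 8 groups, of the lines MDA-MB-436 and MDA-MB-231, grown with 10% serum. TRIzol extraction of total RNA was followed by the NEBNext Ultra II RNA kit, per the labels' protocols. The submitters' processing notes name cutadapt 2.4, HISAT2, StringTie, edgeR and GRCh38, without roles. The deposited values are counts per Ensembl gene, whole numbers as tested on the files, with totals of 33.4 to 174.7 M. Strand and read-splitting settings are not given in the sources used here.

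CPM is a count over the library total, times 1e6. Gene types, coordinates and exons come from GENCODE 29, which held 57055 of the 60675 identifiers. For each line, one model took its 12 libraries: an edgeR 4.0.16 quasi-likelihood fit (filterByExpr, TMM, a mean per group, 8 residual degrees of freedom; R 4.3.3, limma 3.58.1). Treated groups were tested against their own controls, with Benjamini-Hochberg adjustment over all genes and a threshold of 0.05. DESeq2 1.42.0 was an alternative, as were other scalings, filters, thresholds, a replicate block and leaving out each library. Python 3.11.15 with pandas 2.3.3 made the tables. All 17 genes are named, since they are fewer than 30. The genes, lists, classes, relatives and motifs were chosen with earlier results of these data known. A floor is 3 counts over a group. Floors cover counting error only. Some genes of the marker and family lists are not reported here.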

Additional observations from a re-analysis of the deposited data

Results flagged for a closer look

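RCSD1 stood out because it was higher in all treated libraries of MDA-MB-436 and lower in all treated libraries of MDA-MB-231. Its log2 change in MDA-MB-231 was -1.26 with the MDM2 shRNA label and -1.04 with the PROTAC. The difference between the lines was not tested, since the MDA-MB-436 values chose the gene.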

How the results depend on the processing

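The number of genes taken follows the thresholds. In place of 17 it was 7 with a control threshold of 0.1 CPM and 102 with 0.5 CPM, 7 with a treated threshold of 2 CPM and 77 with 0.5 CPM, 5 with the thresholds met by every library and 11 after dropping genes that share exon sequence. Leaving out each MDA-MB-436 library gave 15 to 24. Without members with exon overlap, 2 rather than 4 genes were over 1 CPM in MDA-MB-231 controls (3 to 4 with each library left out), and the median treated level in MDA-MB-436 was 1.77 rather than 2.3 CPM (2.01 to 2.43 with each library left out). The median level in MDA-MB-231 controls was 0.0357 CPM, and 0.0102 to 0.0471 CPM with each control library left out. The cause of these shifts was not tested beyond the change each setting makes.

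In MDA-MB-231, the calls of CLIC5, ARHGAP40 and RCSD1 kept their direction and their side of an adjusted p of 0.05 under each alternative run, with log2 changes of 1.01 to 1.39, 0.32 to 0.61 and -1.43 to -0.90. A model with a replicate block also called 3 genes in each comparison. Libraries of the same number did not deviate together (r of -0.0281 to 0.0138), so the numbers were not taken as pairs. DESeq2 called 4, adding AC139530.2 with log2 changes of 25.30 and -23.86, which rest on libraries at 0. With each library left out, the uncalled log2 change of AC010422.6 ran from -3.12 to 1.01 with the hairpin label (positive without non-targeting replicate 1) and from -2.12 to 1.36 with the PROTAC (positive without DMSO replicate 1). Under the replicate block it was 0.42 with the PROTAC. The uncalled log2 change of CAMK1G ran from -6.94 (without MDM2 shRNA replicate 3) to -1.59 (without non-targeting replicate 3) with the hairpin label, and from 2.27 (without DMSO replicate 3) to 6.14 (without DMSO replicate 2) with the PROTAC. That of AC139530.2 with the PROTAC ran from -11.30 to 0, reached without DMSO replicate 3. Dividing counts by 4 and rounding, and the settings for levels in MDA-MB-436, were chosen after seeing the data. The 10 genes not tested in MDA-MB-231 had too few counts there to pass the filter.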
